A study of Homo sapiens with 6 samples.

Results

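The enzymes that make and degrade inositol pyrophosphates were followed at the transcript level in HEK293T cells that expressed a polyphosphate kinase. They were chosen by gene symbol and comprise 10 of the 58051 genes in the count table. The group holds the inositol hexakisphosphate kinases IP6K1, IP6K2 and IP6K3, the diphosphoinositol pentakisphosphate kinases PPIP5K1 and PPIP5K2, the upstream kinases IPMK, IPPK and ITPK1, and the phosphohydrolases NUDT3 and NUDT4. Each symbol matched 1 row of the table.

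HEK293T derives from human embryonic kidney and expresses the large T antigen of SV40. Cells were transiently transfected with the empty vector pcDNA3.1- (3 libraries) or with pcDNA3.1-ppk1 (3 libraries), which carries the gene of a bacterial enzyme that polymerises phosphate, and were harvested after 48 hours. Both groups therefore share the line, the transfection and the vector backbone, and the plasmid amount of each library is not given in the labels. Libraries of both groups carry the letters B, C and D, and a letter marks a matched biological replicate.

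Library totals ran from 40851783 to 67122986 counts, with more counts in the ppk1 library of every pair. All 10 genes of a marker list for HEK293 cells had a mean of at least 1 CPM (counts per 1e6 counts), among them VIM, KRT18, PAX2 and LHX1. The ppk1 transcript itself was not analysed here. Genome-wide, 9.08% of the 19574 genes tested had a Benjamini-Hochberg adjusted p below 0.05 in edgeR's quasi-likelihood test with the replicate letter as a block. That test and threshold define a change below.

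Inositol pyrophosphates are inositol phosphates in which at least one position of the ring carries a diphosphate. The IP6 kinases and the PPIP5 kinases each add a phosphate to an existing one, at different ring positions, and NUDT enzymes of the diphosphoinositol phosphohydrolase class remove it. Synthesis consumes ATP and is known to follow the energy and phosphate state of the cell. Inositol pyrophosphates bind SPX domains, which occur in the human phosphate exporter XPR1 and, in yeast, in the polyphosphate polymerase complex. The NUDT enzymes also cleave inorganic polyphosphate, which links the family to the product of ppk1.

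Of the 10 genes, 1 fell with ppk1 (IP6K3) and 0 rose in edgeR's test, with 2 of them higher at an unadjusted p below 0.05. Over all genes tested, 5.04% were called lower and 4.04% higher. An unadjusted p below 0.05 in edgeR's test, in either direction, was found for 3 of the 10 and for 23.8% of all genes tested. DESeq2 called 0 of the 10 but gave IP6K3 no adjusted p, so it could not call this gene. It called 4.40% of the genes to which it gave an adjusted p. Without the block edgeR called IP6K3 alone, at a share of 2.40%. IP6K3, the family member known chiefly from skeletal muscle and brain, averaged 0.468 ± 0.151 CPM with the empty vector and fell to 0.0718 ± 0.0296 CPM with ppk1 (SD, n = 3 each). In whole cultures, fewer expressing cells and less RNA per cell cannot be told apart. The other 9 genes were well covered, with 682 to 10227 counts per library, and all their 95% intervals lay between -0.31 and 0.37 on the log2 scale. Ratios of ppk1 to empty vector below 0.808 or above 1.29 were thus outside the intervals of these 9 genes.

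**Figure D1:**
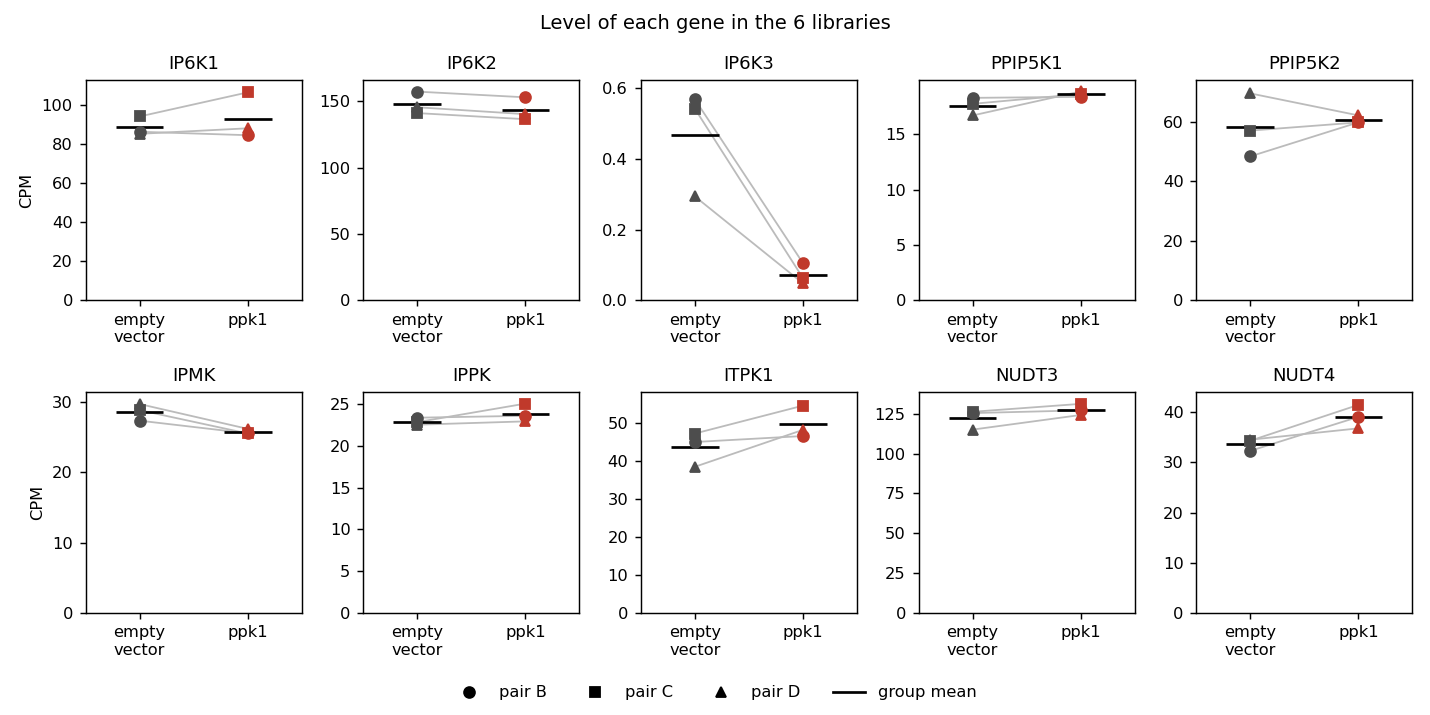
Level of each of the 10 genes in CPM (scaled by TMM), with the 3 empty vector libraries in grey and the 3 ppk1 libraries in red. Lines join the libraries of a pair, black bars are group means, every axis starts at 0 and each panel has its own scale. IP6K3 is below 0.11 CPM in every ppk1 library and above 0.29 CPM in every empty vector library, while the other panels show small differences.

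IP6K3 (ENSG00000161896, chromosome 6) had 30, 24 and 12 counts in empty vector libraries B, C and D. In ppk1 libraries B, C and D it had 7, 3 and 2 counts. The groups did not overlap, although within each pair the ppk1 library was the deeper. Groups without overlap and lower with ppk1 were found for 12.6% of all genes tested, and higher for 13.0%. In CPM, the empty vector libraries stood at 0.568, 0.542 and 0.294, and the ppk1 libraries at 0.105, 0.0626 and 0.0479. Empty vector library D was the lowest of its group and still lay above all 3 ppk1 libraries.

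The log2 fold change of IP6K3 was -2.64 (SE 0.42, 95% interval -3.48 to -1.79), and the edgeR adjusted p was 1.4e-05. Among all genes tested, IP6K3 included, 0.0511% had a log2 fold change as low or lower. That share was not worked out for genes of similarly low counts. In pairs B, C and D the log2 ratio of CPM was -2.44, -3.11 and -2.62. Counting error alone is wide at this depth. The ratio of pair B was 5.42-fold lower, with an exact 95% counting interval of 2.33 to 14.6. Pair C was 8.65-fold lower (2.63 to 44.9) and pair D 6.14-fold lower (1.37 to 56.5). With the counts of each group summed, 66 against 12, the ratio was 6.24-fold lower (3.34 to 12.7). These intervals cover counting error only and not the variation between cultures.

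The low counts of IP6K3 bear on how its call can be read. The filter on low counts needs about 0.215 CPM in at least 3 libraries. IP6K3 passed it in all 3 empty vector libraries and in 0 ppk1 libraries. A gene that enters in this way had to differ between the groups to some degree. Of the 99 genes that entered as IP6K3 did, 46.5% were called lower. Of the 2051 tested genes with a mean of 10 to 20 counts, 3.22% were called lower. Without the filter, IP6K3 kept a log2 fold change of -2.64, with an edgeR adjusted p of 1.5e-07. That fit reused the same counts, so it adds no independent evidence. It called 4.57% of 37850 genes. DESeq2 gave a log2 fold change of -2.71 (SE 0.77, unadjusted p 0.00045) and no adjusted p.

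The promoter windows of IP6K3 and of IP6K2, the most abundant IP6 kinase, are shown because IP6K3 differs from the rest of the family in CpG content. They are RefSeq sequences of build GRCh38.p14, from 250 bases before to 50 bases after the annotated start, on the minus strand, 5′ to 3′, with CpG dinucleotides in capitals. The IP6K3 window is chr6:33746856-33747155 and the IP6K2 window is chr3:48717172-48717471.
IP6K3: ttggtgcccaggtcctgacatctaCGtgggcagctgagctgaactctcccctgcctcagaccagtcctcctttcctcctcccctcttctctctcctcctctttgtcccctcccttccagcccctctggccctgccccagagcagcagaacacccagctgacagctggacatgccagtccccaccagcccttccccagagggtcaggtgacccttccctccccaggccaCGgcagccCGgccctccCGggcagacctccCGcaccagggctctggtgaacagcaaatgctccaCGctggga
IP6K2: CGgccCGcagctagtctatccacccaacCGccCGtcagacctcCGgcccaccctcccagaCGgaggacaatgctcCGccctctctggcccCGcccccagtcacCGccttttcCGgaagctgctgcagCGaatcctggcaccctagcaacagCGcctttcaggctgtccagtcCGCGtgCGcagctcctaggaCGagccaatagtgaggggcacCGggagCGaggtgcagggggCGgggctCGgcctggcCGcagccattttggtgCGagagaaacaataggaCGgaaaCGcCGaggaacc

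The IP6K3 window held 6 CpG dinucleotides at 65.3% GC, and the IP6K2 window held 25 at 66.7% GC. The median of 35114 human promoter windows of the same length was 14 CpG, and 33.7% held fewer than 6. All 10 genes matched the table by symbol, and some had several annotated starts. The highest CpG count of any window was 20 for PPIP5K2 and between 25 and 50 for the other 8 genes besides IP6K3. PPIP5K1 and ITPK1 also had alternative windows with only 1 and 6 CpG. The IP6K3 window also held 3 copies of CAGCTG, an E-box of the class bound by basic helix-loop-helix factors such as the myogenic ones. This motif, which reads the same on both strands, was searched after the window had been seen. The adjoining pair of copies lies in chr6:33746984-33747006 on the minus strand, with the motif in capitals.
IP6K3 E-boxes: caccCAGCTGaCAGCTGgacatg

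At least 1 CAGCTG occurred in 17.9% of all promoter windows, and at least 3 in 0.205%. A match of letters does not show that a factor binds there. IPMK and IPPK held 1 copy each, as did 1 alternative window each of PPIP5K1 and ITPK1, and the windows of the other 5 genes held 0.

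**Figure D2:**
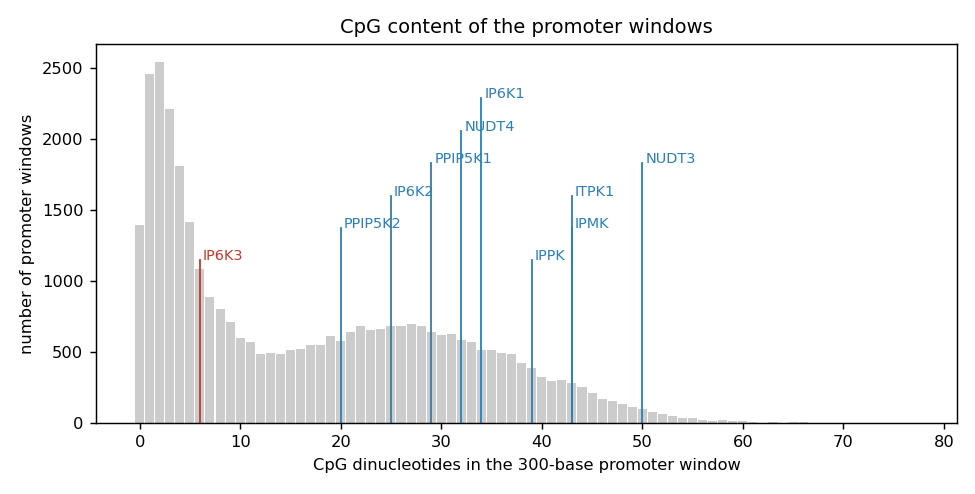
Number of promoter windows (vertical axis) by the number of CpG dinucleotides in the window of 300 bases (horizontal axis), for 35114 human windows in grey. Lines mark, for each of the 10 genes, its window with the most CpG. IP6K3 (red) stands at 6, in the low-CpG part of the distribution, and the other 9 genes (blue) stand between 20 and 50.

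IP6K3 had no exon overlap with another annotated gene, and 0% of its transcript sequence (in stretches of 50 bases) occurred in another gene. Of its 6 nearest tested neighbours on chromosome 6, 0 were called lower in edgeR's test, against 5.04% of all genes tested. So small a number of genes cannot show whether the neighbourhood differs from that share. The nearest tested genes on one side, UQCC2, ITPR3 and BAK1, had log2 fold changes of 0.08, -0.01 and 0.23. Of these BAK1, a pro-apoptotic gene, rose (edgeR adjusted p 0.044). On the other side, LEMD2, GRM4 and HMGA1 had log2 fold changes of -0.07, -0.56 and 0.15, with adjusted p between 0.18 and 0.62 in the same test.

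Markers of skeletal muscle and cerebellum, where IP6K3 is known to be expressed, were read beside it. Of 5 skeletal muscle markers, edgeR tested MYOD1 and ACTA1, while its filter removed MYOG, CKM and MB. Of the 5, 0 were called by edgeR or DESeq2, and 1 (ACTA1, higher with ppk1) had an unadjusted p below 0.05 in edgeR's test. Of all genes tested, edgeR called 9.08%, and 23.8% had an unadjusted p below 0.05. The summed level of the 5 muscle markers was 1.99 to 2.20 CPM with the empty vector and 2.16 to 2.59 CPM with ppk1. ACTA1 averaged 0.787 ± 0.0959 CPM with the empty vector and 1.23 ± 0.273 CPM with ppk1 (SD, n = 3). MYOD1 had 60, 46 and 40 counts against 74, 36 and 42, and MYOG had at most 1 count in any library. CKM had 9, 7 and 8 counts against 8, 5 and 7, with log2 ratios of CPM of -0.51, -0.60 and -0.23. MB had 2, 4 and 1 counts against 1, 1 and 0. The 3 cerebellar markers summed to 1.84 to 2.50 and 1.87 to 2.65 CPM. CALB1 among them was removed by edgeR's filter. Of the 3, 0 were called by either tool and 0 had an unadjusted p below 0.05 in edgeR's test. Among the other marker lists, ALB, 1 of 2 liver markers, was called lower, at 0.632 ± 0.177 CPM with the empty vector and 0.237 ± 0.0300 CPM with ppk1 (SD, n = 3), with 0 of the 2 called by DESeq2. LUM, 1 of 3 fibroblast markers, had a log2 fold change of -0.61 (unadjusted p 0.015) and was not called. Of the 10 HEK293 markers, KRT18 was called higher and NEFL lower, with log2 fold changes of 0.28 and -0.29 (edgeR adjusted p 0.011 and 0.0079). The part of these marker differences in the IP6K3 result was not tested.

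By root mean square difference of mean-centred log2 CPM over the 6 libraries, the genes most like IP6K3 among 19573 others were ZNF750 (0.19), CYP4F2 (0.28) and CYP4F3 (0.31). ZNF750 is a zinc finger gene of epidermal differentiation, and the CYP4F genes encode cytochrome P450 fatty acid hydroxylases. ZNF750 had 41, 29 and 20 counts with the empty vector and 8, 5 and 4 with ppk1. CYP4F2 and CYP4F3 share part of their sequence (11.9% of that of CYP4F2), so their counts are uncertain. All were lower with ppk1, as the measure of likeness requires. Their counts were also low, at most 71 per library (CYP4F3, empty vector B), which a mean-centred measure does not require.

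IP6K1 and IP6K2 carried nearly all IP6 kinase transcripts in these cells and were not called. IP6K2 (ENSG00000068745, chromosome 3) had 157, 141 and 146 CPM in empty vector libraries B, C and D and 153, 137 and 140 CPM in the ppk1 libraries. The ranges overlapped, and each pair differed by -0.05 or -0.04 on the log2 scale. The fitted log2 fold change was -0.05 (SE 0.07, 95% interval -0.19 to 0.10, edgeR adjusted p 0.75). IP6K1 (ENSG00000176095, chromosome 3) had 86.2, 94.0 and 85.1 CPM against 84.4, 106 and 87.9 CPM. Its ppk1 library C was the highest of the 6, and the fitted log2 fold change was 0.06 (SE 0.07, -0.09 to 0.22, adjusted p 0.65).

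Levels of different genes were compared per length of the longest annotated transcript, scaled so that all genes sum to 1e6 (written below as units). On this scale IP6K2 made up 76.2 ± 1.81% of the summed IP6 kinase level with the empty vector and 74.8 ± 3.29% with ppk1 (SD, n = 3). IP6K1 made up 23.6 ± 1.80% and 25.1 ± 3.30%. IP6K3 made up 0.229 ± 0.0704% and 0.0355 ± 0.0136%. The fall of IP6K3 therefore concerned a very small part of the IP6 kinase transcripts. The summed CPM of all 3 genes was 237 ± 6.65 and 236 ± 7.33. With the union of all exons as the length, the share of IP6K2 was lower, at 60.5 ± 2.37% in the empty vector libraries, since this gene has 28 annotated transcripts of differing exons.

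**Figure D3:**
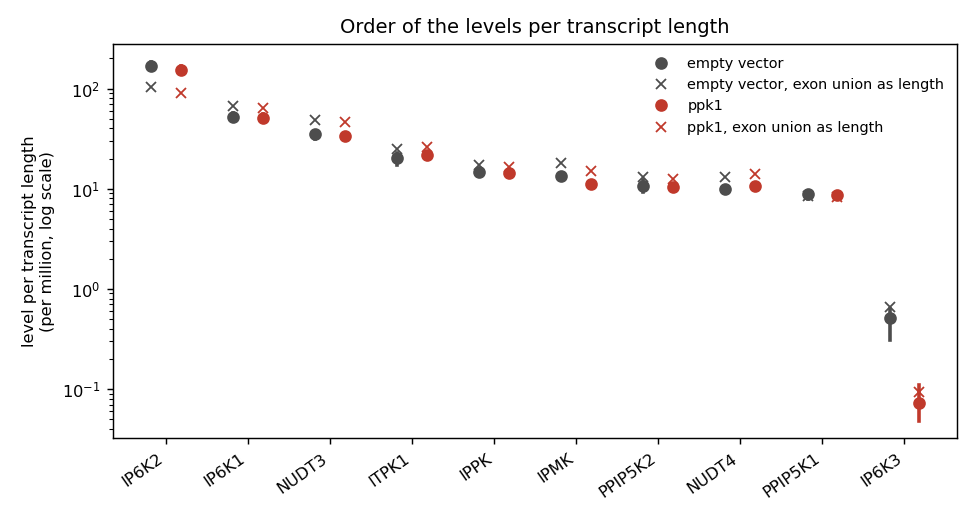
Level of each of the 10 genes per transcript length (units as in the text, log axis), ordered by the empty vector mean. Circles are means and vertical lines the range of 3 libraries with the longest transcript as length, and crosses are means with the exon union as length. IP6K2 is highest at 170 and 152 units in the empty vector and ppk1 libraries, and IP6K3 lowest at 0.515 and 0.0728.

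In the empty vector libraries the order of levels per transcript length was IP6K2, IP6K1, NUDT3, ITPK1, IPPK, IPMK, PPIP5K2, NUDT4, PPIP5K1 and IP6K3. The means ran from 170 ± 13.3 units for IP6K2 over 35.2 ± 3.03 for NUDT3 to 8.77 ± 0.709 for PPIP5K1 and 0.515 ± 0.181 for IP6K3 (SD, n = 3). PPIP5K2 and NUDT4 had overlapping ranges, and every other pair of neighbours was in this order without overlap in the 3 libraries. IP6K3 lay 17.0-fold below PPIP5K1 in the empty vector libraries. Between the groups, only NUDT4 and PPIP5K2 exchanged places, and in the ppk1 libraries NUDT4 overlapped both IPMK and PPIP5K2. This scale is not corrected by TMM, and the order of the group means differed from that in CPM for 5 genes, IP6K1, PPIP5K1, PPIP5K2, IPPK and NUDT3. Differences between the groups in the level of a gene are therefore read from CPM and the fit only, and shares within a family are given as a description.

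The PPIP5 kinases, which act on the product of the IP6 kinases as well as on inositol hexakisphosphate and also carry a phosphatase domain, were not called. PPIP5K1 (ENSG00000168781, chromosome 15) had 18.3, 17.7 and 16.7 CPM in empty vector libraries B, C and D and 18.4, 18.6 and 18.9 CPM in the ppk1 libraries. The groups did not overlap, but the log2 fold change was 0.08 (SE 0.08, 95% interval -0.09 to 0.25, edgeR adjusted p 0.60). The sequence of PPIP5K1 is shared for 36.1% with AC011330.1, a copy whose row in the table held at most 4 counts per library. Reads that matched both may have been lost from either, since the handling of multiply mapped reads is not given.

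PPIP5K2 (ENSG00000145725, chromosome 5) varied among the empty vector libraries, with 48.4, 57.1 and 69.6 CPM in B, C and D. The ppk1 libraries stood close together at 59.9, 59.8 and 62.2 CPM, inside that range. The pairs differed in direction, with log2 ratios of 0.31, 0.07 and -0.16. The log2 fold change was 0.07 (SE 0.08, -0.09 to 0.23, edgeR adjusted p 0.63), and it was -0.05 without pair B. PPIP5K1 made up 45.1 ± 5.60% of the PPIP5 kinase level per transcript length with the empty vector and 45.3 ± 0.330% with ppk1 (SD, n = 3).

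Of the upstream kinases, none passed the test (0 of 3 in edgeR's quasi-likelihood test, 1 at an unadjusted p below 0.05, and 0 in DESeq2). Of all genes tested, edgeR called 9.08%, and 23.8% had an unadjusted p below 0.05. DESeq2 called 4.40% of the genes to which it gave an adjusted p. IPMK (ENSG00000151151, chromosome 10), the multikinase that phosphorylates inositol trisphosphate and tetrakisphosphate, had 27.4, 28.9 and 29.7 CPM in empty vector libraries B, C and D. In the ppk1 libraries it had 25.6, 25.5 and 26.2 CPM, below all empty vector libraries. The log2 fold change was -0.15 (SE 0.08, 95% interval -0.31 to 0.00) and the edgeR adjusted p 0.23.

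IPPK (ENSG00000127080, chromosome 9), the kinase that completes inositol hexakisphosphate, had 23.4, 22.9 and 22.6 CPM against 23.6, 25.1 and 23.0 CPM. Its ranges overlapped and its log2 fold change was 0.06 (SE 0.08, -0.10 to 0.22, edgeR adjusted p 0.71). CENPP covers 72% of the exon length of IPPK on the opposite strand, at 986 to 1563 counts, so the IPPK count is uncertain if the counting ignored the strand.

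ITPK1 (ENSG00000100605, chromosome 14) phosphorylates inositol tris- and tetrakisphosphates and also acts on early inositol phosphates independently of phospholipase C. It had 44.9, 47.1 and 38.4 CPM in empty vector libraries B, C and D and 46.5, 54.5 and 48.1 CPM in the ppk1 libraries. Each ppk1 library was above its partner, but the groups overlapped. The log2 fold change was 0.19 (SE 0.08, 95% interval 0.04 to 0.35), with an unadjusted p of 0.015 and an adjusted p of 0.10 in edgeR's test. Without pair B, where the difference was smallest (0.05, against 0.21 and 0.33), it was 0.27 and passed, with an edgeR adjusted p of 0.032. In that setting 12.5% of all genes tested were called, against 9.08% with all pairs.

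The phosphohydrolase NUDT4 had the smallest adjusted p of the 9 genes that were not called. NUDT4 (ENSG00000173598, chromosome 12) had 32.3, 34.3 and 34.5 CPM in empty vector libraries B, C and D and 39.1, 41.5 and 36.8 CPM in the ppk1 libraries. All ppk1 libraries were above all empty vector libraries. The log2 fold change was 0.21 (SE 0.08, 95% interval 0.06 to 0.37), with an unadjusted p of 0.0069 and an adjusted p of 0.064 in edgeR's test. Without pair D it was 0.25 with an edgeR adjusted p of 0.027, in a setting where 9.06% of all genes tested were called. Of the exon length of NUDT4, 24.5% is overlapped by UBE2N on the opposite strand, and 10.8% of its sequence occurs in NUDT4B, whose row (named NUDT4P1) was at 0 counts in all 6 libraries.

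NUDT3 (ENSG00000272325, chromosome 6), which cleaves polyphosphate within the chain besides inositol pyrophosphates, had 126, 126 and 115 CPM in empty vector libraries B, C and D. In the ppk1 libraries it had 127, 131 and 124 CPM. Every ppk1 library was slightly above its partner while the ranges overlapped, and the log2 fold change was 0.06 (SE 0.07, 95% interval -0.09 to 0.21, edgeR adjusted p 0.66). AL354740.1 covers 71.6% of the exon length of NUDT3 on the opposite strand and held 85 to 169 counts per library. The readthrough gene RPS10-NUDT3 shares 43.3% of the exon length of NUDT3 on the same strand and held only 11 to 30 counts per library. Adding the readthrough counts, or those of the NUDT4, PPIP5K1 and ITPK1 relatives, to the gene changed no call.

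NUDT10 and NUDT11, the other diphosphoinositol phosphohydrolases, were not called either, with log2 fold changes of 0.09 and 0.07 (SE 0.09 and 0.08, edgeR adjusted p 0.60 and 0.62). They share 13.4% and 11.5% of their sequence with each other. Per transcript length, NUDT11 made up 37.6 ± 1.72%, NUDT3 34.7 ± 1.66%, NUDT10 17.9 ± 1.27% and NUDT4 9.73 ± 0.360% of these 4 genes in the empty vector libraries (SD, n = 3). The share of NUDT4 was 10.6 ± 0.309% in the ppk1 libraries.

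**Figure D4:**
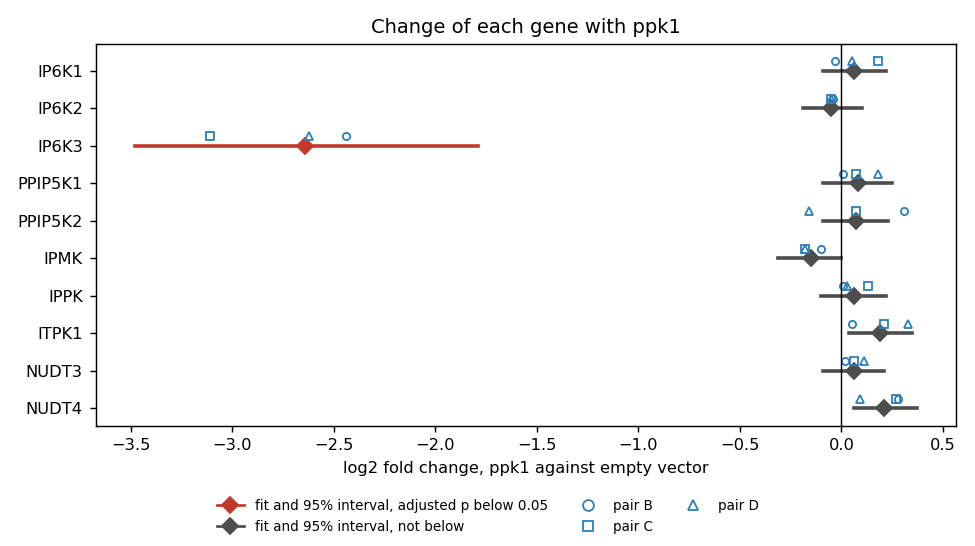
Log2 fold change of each of the 10 genes, ppk1 against empty vector (horizontal axis). Diamonds and bars are the edgeR fit with its 95% interval, red where the adjusted p was below 0.05, and open symbols are the ratios of pairs B, C and D. IP6K3 lies at -2.64 and all other genes between -0.15 and 0.21.

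Across the 10 genes, the median log2 fold change was 0.06, against 0.01 for all genes tested, and the median absolute value was 0.08, against 0.13. The groups did not overlap for 4 genes, of which 2 were higher (PPIP5K1 and NUDT4) and 2 lower (IP6K3 and IPMK). Genome-wide these shares were 13.0% and 12.6%. All 3 pairs had the same sign in 8 genes, 5 of them higher and 3 lower, against 22.6% higher and 21.1% lower of all genes tested.

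The wider inositol phosphate genes covered inositol supply, phospholipase C, the phosphatases and the receptors of inositol trisphosphate. Of 47 listed genes, 45 were tested, and 1 rose and 2 fell, against 4.04% called higher and 5.04% called lower of all genes tested. The median log2 fold change was 0.00, and 9 genes had an unadjusted p below 0.05, which holds for 23.8% of all genes tested. The largest change was in INPP5D (SHIP1), an inositol polyphosphate phosphatase best known from blood cells. INPP5D had 6.72, 5.53 and 4.46 CPM in empty vector libraries B, C and D and 2.89, 2.48 and 1.63 CPM in the ppk1 libraries, so the groups were well apart. It fell by 1.26 on the log2 scale (SE 0.13), and the edgeR adjusted p was 6.2e-10. Blood markers stood at or near 0 in both groups, with PTPRC at no more than 4 counts and CD3E at no more than 1 count per library.

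The other called genes were a pair of phospholipases C of the delta class, which release inositol trisphosphate from membrane lipid. PLCD3 rose by 0.33 on the log2 scale (SE 0.08, edgeR adjusted p 0.0029), with 40.4 ± 3.27 CPM for the empty vector and 51.0 ± 4.75 CPM for ppk1 (SD, n = 3). PLCD1 fell by 0.33 (SE 0.11, adjusted p 0.041), with 8.54 ± 1.02 and 6.81 ± 0.469 CPM. Pair D contributed little to PLCD1, with a log2 ratio of -0.03 against -0.42 and -0.52. Neither was called without the replicate block (adjusted p 0.065 and 0.14) or without pair C (0.36 and 0.65), and PLCD1 was not called without pair B (0.16), in DESeq2 (0.24), with upper-quartile scaling (0.066) or with the stricter filter (0.059).

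Genes of inositol supply were not called (0 of 8 tested in edgeR's test, 2 at an unadjusted p below 0.05, and 0 in DESeq2). Of all genes tested, edgeR called 9.08%, and 23.8% had an unadjusted p below 0.05. Among the supply genes, ISYNA1, the inositol synthase, and the transporter SLC5A3 had log2 fold changes of 0.08 and -0.11. The inositol trisphosphate receptors ITPR1, ITPR2 and ITPR3 had log2 fold changes of -0.23, -0.13 and -0.01, with edgeR adjusted p-values of 0.057, 0.28 and 0.97. XPR1, the phosphate exporter with an SPX domain, had 94.8 ± 4.96 and 90.9 ± 2.67 CPM (SD, n = 3) and a log2 fold change of -0.06 (SE 0.07, adjusted p 0.68). PRUNE1, reported to degrade short polyphosphate, had a log2 fold change of 0.07 (SE 0.08, adjusted p 0.61).

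**Figure D5:**
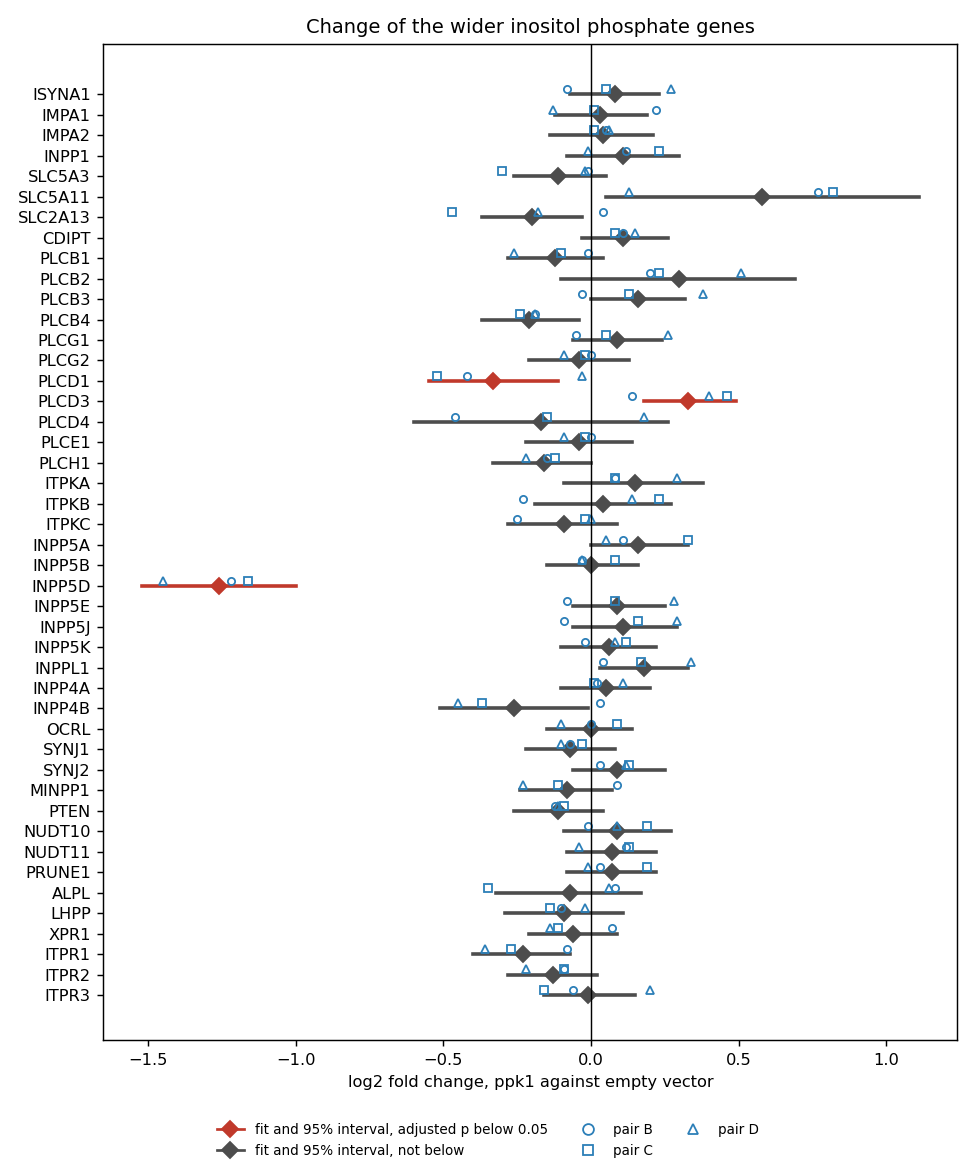
Log2 fold change, ppk1 against empty vector (horizontal axis), of the 45 tested genes of the wider inositol phosphate list, with the edgeR fit and its 95% interval (red where the adjusted p was below 0.05) and the ratios of pairs B, C and D as open symbols. INPP5D stands at -1.26, PLCD1 at -0.33 and PLCD3 at 0.33, and most other intervals include 0.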

How the data were processed

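Poly(A)-selected RNA was sequenced in 6 HEK293T libraries, made with a directional kit per the labels' protocols. The authors deposited 1 table of raw read counts for 58051 Ensembl genes. The submitters' processing notes name Trimmomatic, STAR and HTSeq among their tools. The genome build, annotation release, strand setting and treatment of multiply mapped reads are not given in the sources used here. Chromosomes, exons and lengths come from GENCODE release 29 by identifier (98.96% matched), and promoter windows from RefSeq.

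The whole table was fitted in R 4.3.3 with edgeR 4.0.16 (glmQLFit and glmQLFTest, filterByExpr with minimum count 10, TMM scaling, replicate letter as a block, Benjamini-Hochberg adjustment over all genes, threshold 0.05). The series' design text states the pairing. Same-letter libraries deviated together only weakly (correlation 0.109, 0.135 and 0.0476 for B, C and D). Intervals use the standard error and the test's degrees of freedom. CPM are counts per 1e6 TMM-scaled counts, and 3 counts correspond to 0.0447 to 0.0734 CPM before scaling. The p-values of the main fit rest on the spread within the pairs of these 6 libraries. A gene's own spread is combined with that pooled over all genes, which carries 47.5 prior degrees of freedom. Levels per length divide counts by the longest transcript. The script was tested on simulated data. Alternatives were RLE and upper-quartile scaling, other filters, robust dispersion, DESeq2 1.42.0, no block, leaving out a pair, summed copies and the exon union as length.

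All 10 genes are described whatever their values. Of the wider list every called gene is named, up to 6 in each direction, and for a called member the 3 genes most like it. Some further genes, including neighbours and markers, are named to give their values. The members and lists were chosen with earlier results of these data known.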

Additional observations from a re-analysis of the deposited data

How the results depend on the processing

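IP6K3 kept its direction and its call in all edgeR alternatives that tested it. With no replicate block its log2 fold change was -2.60 (edgeR adjusted p 0.0064), and leaving out a pair gave -2.87 to -2.45. The stricter filter (mean of at least 50 counts) left it out and DESeq2 gave it no adjusted p, so under both 0 in place of 1 of the 10 genes was called lower. Leaving out a pair gave 0 to 1 of the 10 called higher, with log2 fold changes of 0.11 to 0.27 for ITPK1 and 0.18 to 0.25 for NUDT4. In either direction, edgeR called 12.5%, 2.06% and 9.06% of all genes tested without pair B, C and D. PPIP5K2 ran from -0.05 (without pair B) to 0.17, with no call. Of the wider list, 0 genes in place of 1 were called higher without the block, and 0 to 3 when a pair was left out. The number called lower was 1 in place of 2 with upper-quartile scaling, the stricter filter, DESeq2 and no block, and ran from 1 to 3 when a pair was left out. Apart from IP6K3 under the stricter filter, the cause was not tested. Genome-wide, edgeR called 9.08% of tested genes in the main fit, 6.92% with upper-quartile scaling, 8.96% with the stricter filter and 2.40% without the block. DESeq2 called 4.40% of the genes to which it gave an adjusted p.

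Over all genes, 1777 were called, 470 without the block and 755 with DESeq2. Without pair B, C or D, 2435, 406 and 1803 were called. With the exon union as length, levels in the empty vector libraries were 102.8 units for IP6K2, 66.4 for IP6K1, 48.2 for NUDT3, 25.1 for ITPK1, 18.2 for IPMK, 17.3 for IPPK, 13.1 for PPIP5K2 and 13.1 for NUDT4, and IPMK then stood above IPPK with overlapping ranges. Of the 10 genes, IP6K3 had the lowest depth, with 2 to 30 counts per library.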
